A study of Danio rerio with 6 samples.

Results

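The Hedgehog pathway genes described here are the ligand genes shha and ihha, the receptor gene ptch1, the ligand-trapping gene hhip, the signal transducer gene smo, its downstream inhibitor gene sufu, and the transcription factor genes gli1, gli2a and gli3. These 9 genes were taken by name from a table of 34289 Ensembl genes. They were measured by RNA sequencing of osteoblasts, the bone-forming cells, sorted from regenerating zebrafish scales on day 4 after plucking. All fish carried the 2 reporters osx:H2A-mCherry and osx:Venus-hGeminin, both driven by osterix (sp7) regulatory sequence, so that every sorted cell was mCherry-positive. The Geminin-negative group (osx:H2A-mCherry+ osx:Venus-hGeminin-) and the Geminin-positive group (osx:H2A-mCherry+ osx:Venus-hGeminin+) had 3 libraries each, each from several pooled fish. The fish age is not given in the sources used here. Venus-hGeminin is a cell cycle reporter that builds up after cells leave G1. The study set the gates to contrast osteoblasts that differ in activity of the kinase Erk, but the sample labels give high Erk to the Geminin-positive cells while the design text describes an inverse relation. The groups are therefore named by their gate, the negative and the positive gate.

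Hedgehog proteins are secreted signals that bind Patched receptors. Unbound Patched holds back Smoothened (Smo), and ligand binding lets Smo enter the primary cilium and act on the Gli factors, which Sufu otherwise restrains. The genes ptch1, gli1 and hhip are themselves induced by the pathway in many vertebrate tissues, so their transcripts are commonly read as a sign of response. In zebrafish, shha is known from the epidermis over forming scales and fin rays, and ihha from osteoblasts of the fin ray.

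Each library held 15854710 to 34472612 counts, and between 11977 and 17875 genes had at least 1 count. The osteoblast gene sp7 had 72.4 to 137.5 CPM in the negative gate and 150.3 to 271.5 CPM in the positive gate. CPM is the count scaled to a common library size after TMM scaling. The geminin gene gmnn had 365 to 426 CPM and 1516 to 1633 CPM in the same order, without overlap between the gates. Leukocyte marker genes (30 of 36 counted) took 0.340% to 0.532% of the counts in the negative gate and 0.0184% to 0.0223% in the positive gate. The cartilage collagen gene col2a1a had 0 counts in every library. The labels do not say whether the libraries came from separate fish, and the p-values measure only the spread between these libraries.

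All 9 genes were counted in at least 1 library, and 5 of them (ihha, smo, gli2a, gli3 and sufu) were counted in every library. The negative regulator gene sufu, the transducer gene smo and the factor gene gli2a had the highest mean CPM. The lowest were those of ptch1 and shha, which had 0 counts in 2 and 5 of the 6 libraries. None of the 8 genes that passed the low-count filter differed between the gates by edgeR's quasi-likelihood test with Benjamini-Hochberg adjustment over all 12855 genes tested (lowest adjusted p = 0.8815, for gli2a). In the same test 0.607% of all genes tested were called. At an unadjusted p under 0.05 the count of these 8 was again 0, where 9.40% of all genes tested passed. It was also 0 with DESeq2 and with limma-voom, before and after adjustment, where 4.89% and 0.755% of all genes tested were called after it. Of the 8 genes 6 had a log2 fold change below 0, beside 6480 of the 12855 genes tested. The median of the 8 was -1.14, beside -0.01 over all genes tested. This median was -0.22 with limma-voom, -0.30 without negative-gate replicate 1 and -0.64 without positive-gate replicate 2. Under scaling by library size alone all 8 lay below 0, at a median of -1.52. The median of all genes tested was -0.47 in that fit. In bulk libraries fewer cells of a type and less RNA per cell cannot be told apart.

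**Figure D1:**
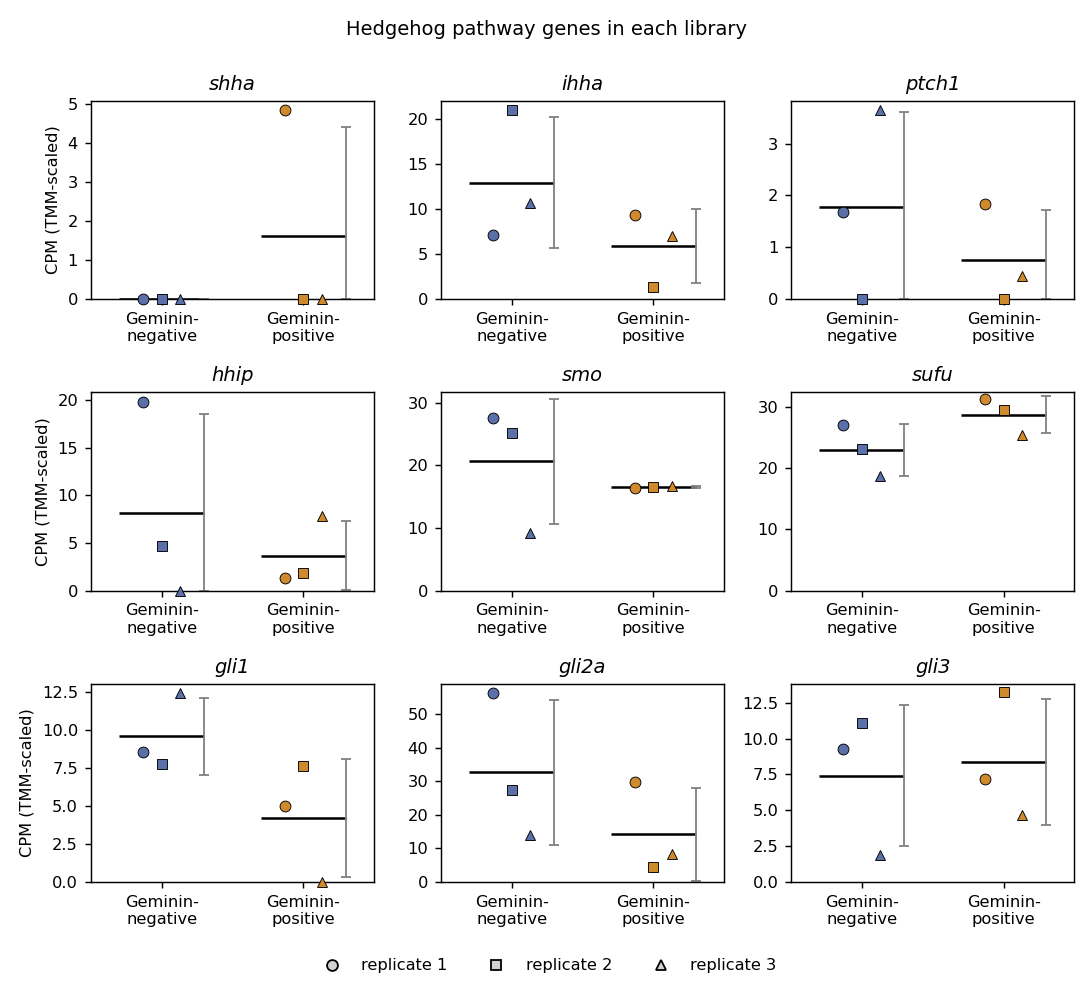
TMM-scaled CPM of the 9 Hedgehog pathway genes in each library, on a linear axis from 0, with negative-gate libraries on the left and positive-gate libraries on the right of each panel. Horizontal bars are group means, grey error bars are 1 SD (n = 3, cut at 0), and symbols mark replicate numbers. Only gli1 had positive-gate values all below the negative-gate ones, and sufu and smo were the steadiest genes of the positive gate.

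Among the ligand genes, ihha (ENSDARG00000058733, danRer10 chromosome 9, 7380358 to 7388887), which encodes the Indian hedgehog ligand, had most of the counts. Its counts were 138, 764 and 236 in replicates 1 to 3 of the negative gate and 147, 19 and 111 in those of the positive gate. In CPM these were 7.06, 20.98 and 10.62 against 9.34, 1.37 and 6.96. The highest library was negative-gate replicate 2 and the lowest positive-gate replicate 2, and the groups overlapped. The means were 12.9 ± 7.23 and 5.89 ± 4.09 CPM (SD, n = 3 each), with a log2 fold change of -1.13 (SE 0.98, 95% interval -3.36 to 1.1, edgeR adjusted p = 0.9999). It was -0.60 without negative-gate replicate 2 and -0.66 without positive-gate replicate 2. A row on the opposite strand overlaps ihha, but it held 11 counts in all 6 libraries together.

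The Sonic hedgehog gene shha (ENSDARG00000068567, chromosome 7, 40603939 to 40613222) was counted in 1 library alone. Positive-gate replicate 1 had 76 counts, or 4.83 CPM, and the other 5 libraries had 0. A count of 0 allows up to 0.0824 to 0.216 CPM in those libraries, taking 3 counts as the floor, which covers counting error only. The gene did not pass the filter, and with counts in a single library a permutation test cannot tell the gates apart. Among all genes 262 had at least 76 counts in 1 library and 0 in the other 5, and 15 of them were counted in positive-gate replicate 1. Since shha is known from the epidermis, epidermal markers were set beside it. The 34 epidermal markers in the tables, 32 of them counted, took 0.871% of the counts in positive-gate replicate 1. They took 0.705% and 0.825% in the other positive-gate libraries and 0.939% to 1.49% in the negative-gate ones. These shares are of all counts, without the TMM scaling of the CPM values, and the order of the libraries differs between these scales. On the TMM scale positive-gate replicate 1 was the lowest positive-gate library, and negative-gate replicate 1 lay lower still. In CPM, positive-gate replicate 1 had the highest level of the epithelial adhesion gene epcam (59.4 CPM, against 7.43 to 42.5 CPM elsewhere). It had the lowest level of the keratin gene krt4 (136.8 CPM, against 232.5 to 1088 CPM). Both genes were named after their values were seen. Their part in the shha count was not tested.

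The other ligand and ligand-release genes were scarce. Of 11 in the tables, among them shhb and ihhb, 4 had 0 counts in all libraries and none passed the filter. The most abundant was disp1, which encodes the transporter Dispatched that frees lipid-modified ligand from its source cell. It had 137, 0 and 92 counts in the negative gate and 7, 0 and 8 counts in the positive gate. Its CPM was highest in negative-gate replicate 1 (7.01) and at 0 in replicate 2 of each group, so the groups overlapped.

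Of the receptors and ligand-binding proteins, ptch1 (ENSDARG00000016404, chromosome 8, 29953792 to 30056947), the Patched receptor gene, had 33, 0 and 81 counts in the negative gate and 29, 0 and 7 counts in the positive gate. This was 1.78 ± 1.82 against 0.760 ± 0.962 CPM (n = 3 each). The groups overlapped, and replicate 2 of each group had 0. The log2 fold change was -1.22 with a 95% interval of -7.06 to 4.63 (edgeR adjusted p = 0.9999), so the interval covers large changes in either direction. The estimate was -0.23 without negative-gate replicate 3, -0.24 with limma-voom and -2.97 without positive-gate replicate 1.

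The gene hhip (ENSDARG00000060397, chromosome 1, 35058055 to 35103836) encodes a membrane protein that binds Hedgehog ligands and limits their reach. It had 388, 170 and 0 counts in the negative gate and 21, 25 and 125 counts in the positive gate. The corresponding CPM were 19.84, 4.67 and 0 against 1.33, 1.80 and 7.84, with the highest and the lowest value both in the negative gate. Its log2 fold change was -1.16 (SE 1.91, 95% interval -5.53 to 3.22, edgeR adjusted p = 0.9999), but 0.64 without negative-gate replicate 1 and 0.93 with limma-voom.

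Of the other receptors, the coreceptor gene boc, which encodes a surface protein that presents ligand to Patched, was the most abundant of its list (40.4 ± 29.6 and 46.6 ± 23.1 CPM). The other coreceptor gene cdon had 12.84, 1.98 and 10.12 CPM in the negative gate and 7.62, 0 and 0.0627 CPM in the positive gate. Of the 13 receptor and surface genes in the tables, 10 were tested, with a median log2 fold change of -0.50. By edgeR 0 were called, also at an unadjusted p under 0.05, beside 0.607% and 9.40% of all genes tested. The smallest p among the 10 were those of gpc4, a heparan sulfate proteoglycan gene (log2 fold change -1.19, edgeR adjusted p = 0.8909), mosmob (-2.96, adjusted p = 0.9758) and cdon (-1.69, adjusted p = 0.9999).

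The transducer gene smo (ENSDARG00000002952, chromosome 4, 14972484 to 14981182) had 538, 918 and 205 counts in the negative gate and 257, 230 and 266 in the positive gate. In CPM it was 27.5, 25.2 and 9.22 against 16.3, 16.6 and 16.7. The positive-gate libraries were nearly equal and lay inside the range of the negative-gate ones. The log2 fold change was -0.32 (SE 0.55, 95% interval -1.57 to 0.93, edgeR adjusted p = 0.9999). It was -0.05 without negative-gate replicate 1, -0.72 without negative-gate replicate 3 and -0.78 under scaling by library size alone.

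The gene sufu (ENSDARG00000056801, chromosome 13, 11696580 to 11737328), whose product binds Gli factors and keeps them inactive, had the highest mean CPM of the 9. It had 530, 844 and 415 counts in the negative gate and 493, 410 and 405 in the positive gate. The CPM were 27.1, 23.2 and 18.7 against 31.3, 29.6 and 25.4, and the lowest positive-gate library lay below the highest negative-gate one. The log2 fold change was 0.32 (SE 0.39, 95% interval -0.56 to 1.2, edgeR adjusted p = 0.9999), and -0.15 under scaling by library size alone. This was the narrowest interval of the 8 tested genes.

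**Figure D2:**
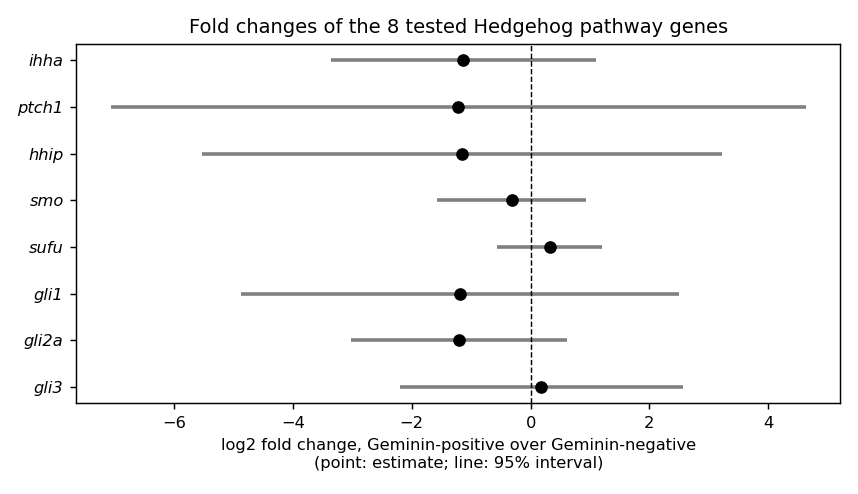
Log2 fold change of the 8 tested Hedgehog pathway genes, positive over negative gate, with points for edgeR's estimate and lines for the 95% interval. Every interval crosses 0. It is narrowest for sufu (-0.56 to 1.2) and widest for ptch1 (-7.06 to 4.63).

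Among the Gli factors, gli2a (ENSDARG00000025641, chromosome 9, 37332041 to 37487113), the main Gli activator gene in mouse by its ortholog, had 1100, 998 and 312 counts in the negative gate. The positive-gate libraries had 470, 60 and 131. In CPM this was 56.3, 27.4 and 14.0 against 29.9, 4.33 and 8.21, so positive-gate replicate 1 lay above 2 of the negative-gate libraries. The means were 32.6 ± 21.6 and 14.1 ± 13.8 CPM, and the log2 fold change was -1.20 (SE 0.80, 95% interval -3.03 to 0.62, edgeR adjusted p = 0.8815). Leaving out 1 library moved this log2 fold change between -0.54 (without negative-gate replicate 1) and -2.37 (without positive-gate replicate 1), and the lowest adjusted p over all alternatives was 0.3053.

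The gene gli1 (ENSDARG00000101244, chromosome 6, 59430422 to 59510483), a Gli activator that is itself a target of the pathway, had 167, 283 and 277 counts in the negative gate. The positive-gate libraries had 79, 106 and 0. In CPM this was 8.54, 7.77 and 12.46 against 5.02, 7.64 and 0. It was the only one of the 9 genes whose groups did not overlap, by a margin of 7.77 to 7.64 CPM. Of all genes tested, 10.3% were lower without overlap in the same way. The log2 fold change was -1.18 (SE 1.61, 95% interval -4.87 to 2.50, edgeR adjusted p = 0.9999), and -0.59 without positive-gate replicate 3, the library at 0. It was -1.93 without positive-gate replicate 2, -1.95 with the replicate block and -3.13 with limma-voom.

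The gene gli3 (ENSDARG00000052131, chromosome 24, 11387903 to 11681138), best known as the source of a Gli repressor in mouse, had 181, 405 and 41 counts in the negative gate and 113, 184 and 75 in the positive gate. The CPM were 9.26, 11.12 and 1.85 against 7.18, 13.27 and 4.70, and the groups overlapped across nearly their whole range. The log2 fold change was 0.18 (SE 1.04, 95% interval -2.20 to 2.56, edgeR adjusted p = 0.9999). It was -0.31 under scaling by library size alone and without positive-gate replicate 2, and -0.32 without negative-gate replicate 3.

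Levels of different genes were compared per exonic length, in TPM computed from the deposited counts and gene lengths. The order of mean TPM over the 6 libraries was sufu (19.1), ihha (12.6), gli2a (8.79), smo (6.42), hhip (2.85), gli3 (2.44), gli1 (1.89), ptch1 (0.658) and shha (0.371). Every pair of neighbours in this order overlapped within 1 SD of their means. Only smo over hhip held in 6 of 6 libraries, and ihha over gli2a, gli3 over gli1 and gli1 over ptch1 held in 5 of 6. The order of hhip over gli3 held in 2 of 6 and that of ptch1 over shha in 3 of 6. Although ihha had a lower CPM than smo and gli2a, its short transcript put it above both in mean TPM.

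Of the summed TPM of gli1, gli2a and gli3, gli2a made up 79.1%, 63.2% and 55.8% in the negative gate and 74.4%, 19.6% and 65.9% in the positive gate. It was the largest of the 3 in 5 of the 6 libraries, the exception being positive-gate replicate 2, where gli3 made up 54.2%. The gli3 share was 13.9% ± 8.48 in the negative gate and 34.8% ± 19.1 in the positive gate (n = 3 each, exact two-sided permutation p = 0.2). The groups overlapped in it, since positive-gate replicate 1 had 16.1% and negative-gate replicate 2 had 23.2%. The summed level itself was 18.1 ± 10.7 against 8.15 ± 5.15 TPM (exact permutation p = 0.2). TPM carries no TMM scaling, so this comparison of the gates is on another scale than the fold changes. The paralog gli2b, outside the sum, was counted in negative-gate replicate 1 alone, with 123 counts.

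**Figure D3:**
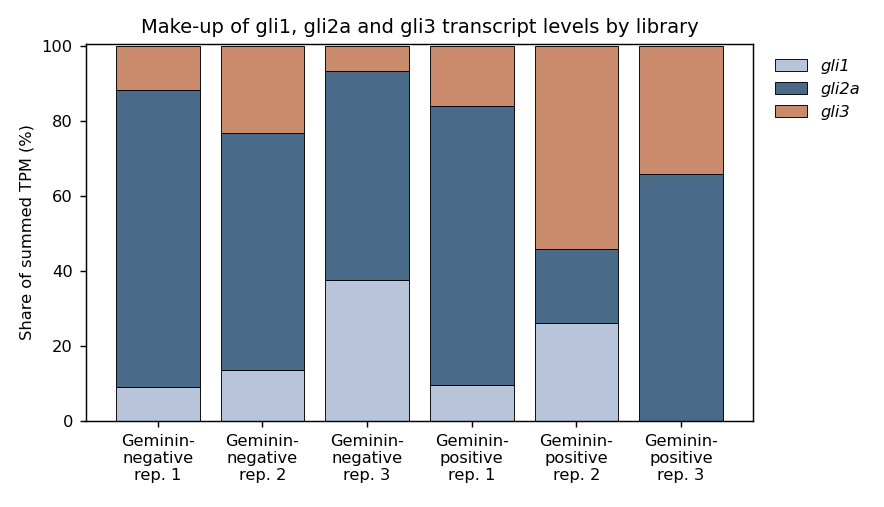
Share of gli1, gli2a and gli3 in the summed TPM of these 3 genes, in percent, for each of the 6 libraries, as stacked bars from 0 to 100%. The gli2a part is the largest except in positive-gate replicate 2, where it is 19.6% and gli3 is 54.2%.

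The pathway genes were unevenly detected. Of the 8 tested genes, gli1, hhip and ptch1 had 0 counts in a library and at least 20 counts in another. That is 37.5% of them, and 37.5% of all genes tested did so. Among tested genes in the same range of mean CPM the share was 46.5%. Positive-gate replicate 1 had counts for all 9 genes, negative-gate replicate 1 for 8, and each other library for 7. Of 134 genes of the wider pathway, 110 were counted in negative-gate replicate 1 and 74 to 97 in the other 5 libraries.

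The wider pathway was described by 5 lists of genes. Of 155 listed genes 134 were in the tables and 95 were tested, of which 40 lay above and 55 below 0 on the log2 fold change scale, at a median of -0.26. The median was -0.08 without negative-gate replicate 1, -0.58 without positive-gate replicate 1 and -0.42 with limma-voom. Under scaling by library size alone it was -0.71, with 78 of 95 below 0, where the median of all genes tested was -0.47. None was called by edgeR after adjustment, where 0.607% of all genes tested were called. At an unadjusted p under 0.05 there were 2 higher and 6 lower, 8 of 95, beside 3.64% higher and 5.76% lower over all genes tested. With limma-voom 0 were called, where 0.755% of all genes tested were called. In that fit 10 had an unadjusted p under 0.05, for which the share over all genes was not computed. With DESeq2 5 were called (tmem67, ccne2, igfbp3, grem1b and bbs4), where 4.89% of all genes tested were called.

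Of the Gli-interacting and cytoplasmic regulators, 25 were tested, 15 positive and 10 negative, with a median of 0.14. By edgeR 0 were called or had an unadjusted p under 0.05, beside 0.607% and 9.40% of all genes tested. The casein kinase gene csnk1a1, whose product phosphorylates Gli proteins in other animals, was the most abundant (118 ± 37.6 and 110.2 ± 21.7 CPM). The 2 copies of arrestin beta 2, an adaptor reported to act with Smo, had opposite signs. The gene arrb2a had 4.81, 5.66 and 3.78 against 12.26, 22.93 and 10.59 CPM (log2 fold change 1.68, edgeR adjusted p = 0.5818). Its copy arrb2b had 46.9, 117.8 and 59.2 against 22.2, 54.8 and 38.7 CPM (-0.95, adjusted p = 0.6397). The groups overlapped for arrb2b. The protein kinase A gene prkacab, whose product phosphorylates Gli factors, had 18, 14.3 and 11.8 against 0.699, 0 and 4.70 CPM (log2 fold change -3.02, edgeR adjusted p = 0.6957). Without overlap between the groups, 1 of the 25 lay higher (arrb2a) and 1 lower (prkacab), beside 8.09% and 10.3% of all genes tested.

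Of the genes of the primary cilium, the organelle through which vertebrate Smo signals, 33 were tested, with 14 positive, 19 negative and a median of -0.55. By edgeR 0 were called, where 0.607% of all genes tested were called. At an unadjusted p under 0.05, 1 was higher and 1 lower, beside 3.64% and 5.76% of all genes tested. The gene tmem67, a transition zone protein gene, had 0 counts in the negative gate and 24, 145 and 219 counts in the positive-gate libraries. Its positive-gate mean was 223-fold above a floor of 3 counts over the negative gate, which covers counting error only. The gene passed the low-count filter through the positive gate alone (edgeR adjusted p = 0.1746). With a group at 0 its fold change has no measured size. The BBSome gene bbs4 had 57, 59 and 152 counts against 0 in all positive-gate libraries. Its negative-gate mean was 57.6-fold above such a floor over the positive gate. This gene passed the filter through the negative gate alone, and its fold change again has no measured size (edgeR adjusted p = 0.318). The transition zone gene b9d1 had 25.9 ± 6.0 against 10.4 ± 6.18 CPM (log2 fold change -1.32, adjusted p = 0.5328). The intraflagellar transport gene ift20 was the most abundant (42.5 ± 9.85 and 60.6 ± 28.2 CPM). Of the 33 genes, 4 lay higher (tmem67, wdr19, ttbk2a and arl6) and 2 lower (bbs4 and b9d1) without overlap between the groups, beside 8.09% and 10.3% of all genes tested. The genes wdr19, ttbk2a and arl6 were named after their values were seen.

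Candidate targets were genes reported to respond to Hedgehog signals in mouse or zebrafish tissues other than scales. Of 28 tested, 8 were positive and 20 negative, with a median of -0.58. By edgeR 0 were called, where 0.607% of all genes tested were called. At an unadjusted p under 0.05 there were 1 higher and 5 lower, beside the same 3.64% and 5.76% of all genes tested. Without overlap between the groups 1 lay higher and 4 lower, beside 8.09% and 10.3%. The smallest p was that of igfbp3, an insulin-like growth factor binding protein gene (ENSDARG00000099144, chromosome 20, 6766300 to 6814290). It had 72.8, 72.3 and 44.1 CPM in the negative gate and 8.89, 25.4 and 20.1 CPM in the positive gate. The groups did not overlap (log2 fold change -1.80, SE 0.47, 95% interval -2.87 to -0.73, edgeR adjusted p = 0.1728). It was the gene called under scaling by library size alone, where 185 of 12855 genes tested were called. It was also called by DESeq2 and without a low-count filter, where 4.89% and 2.57% of all genes tested were called.

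The Bmp antagonist gene grem1b had 172, 225 and 41 counts in the negative gate and 0 in the others. Its negative-gate mean was 85.2-fold above a floor of 3 counts over the positive gate, which covers counting error only. The gene passed the low-count filter through the negative gate alone (edgeR adjusted p = 0.264). With a group at 0 its fold change has no measured size. The retinoic acid-degrading enzyme gene cyp26b1 had 144.9, 29.8 and 6.43 CPM against 3.94, 0 and 0 (log2 fold change -5.51, adjusted p = 0.3254), so that the negative-gate libraries themselves spanned a wide range. It was called without a low-count filter, as was tmem67. The transcription factor gene osr2 was the most abundant of the list, with 233 ± 76.0 and 149 ± 57.3 CPM (log2 fold change -0.65, adjusted p = 0.7604), and its groups overlapped. The higher target was the cyclin E gene ccne2, a cell cycle gene named after its values were seen. It had 4.09, 2.61 and 2.97 CPM in the negative gate and 19.2, 12.8 and 15.2 CPM in the positive gate, without overlap (log2 fold change 2.29, edgeR adjusted p = 0.3484), and was called by DESeq2. Marker shares were taken of all counts of a library, without the TMM scaling of the CPM values and fold changes. Between these scales the median log2 fold change of all genes tested moved by -0.46. As shares of all counts, leukocyte, osteoclast and epidermal markers were also lower in the positive gate without overlap (exact permutation p = 0.1 each, the smallest possible). On the TMM scale the epidermal groups overlapped, with negative-gate replicate 1 below every positive-gate library. As shares of all counts, dermal fibroblast markers, 20 of 23 counted, were higher in the positive gate without overlap. They took 0.304% to 0.379% against 0.383% to 0.631% (exact permutation p = 0.1). Osteoclast markers, 12 of 17 counted, took 0.168% to 0.174% against 0.0363% to 0.0486% of the counts. Osteoblast markers, type I and type X collagen genes among them, took 13.7% to 23.3% against 28.8% to 44.1%. Of these, col1a1a was higher in the positive gate (log2 fold change 2.13, edgeR adjusted p = 0.04627). The estimate for col10a1a had the other sign and was not called (-0.64, adjusted p = 0.8119). The part of the other cell types in the target levels was not tested.

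**Figure D4:**
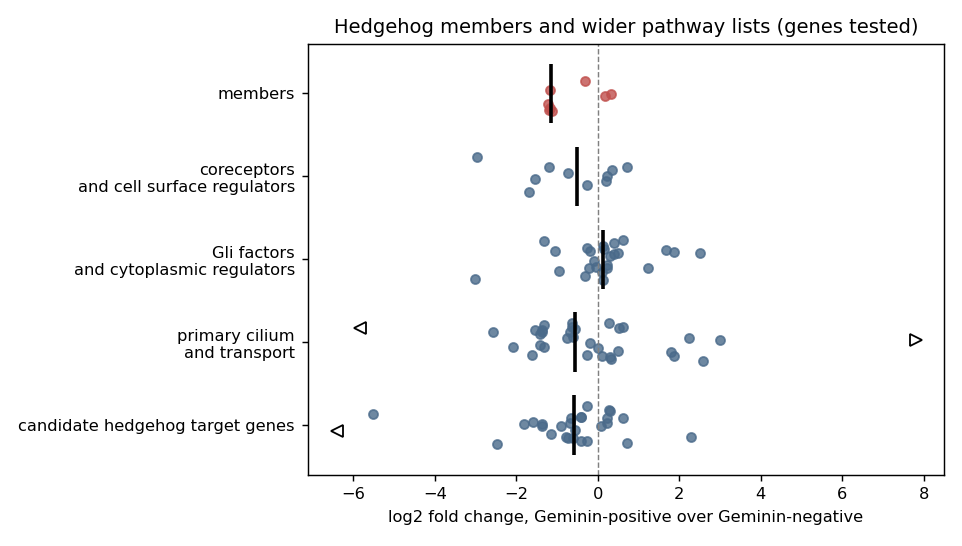
Log2 fold change, positive over negative gate, of the tested Hedgehog members (top row) and of 4 wider pathway lists, 1 point per gene. Open triangles are lower bounds for genes with 0 counts in a whole group, and black bars are medians, which run from -1.14 for the members (-0.30 without negative-gate replicate 1) to 0.14 for the Gli factors and cytoplasmic regulators.

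The genes whose log2 CPM followed a pathway gene most closely over the 6 libraries were sought among 5987 other named genes whose mean reached 10 CPM. For sufu these were ppp4r3b (Pearson r = 0.984), the triosephosphate isomerase gene tpi1b (0.983) and marchf6 (0.981). For gli2a these were cyth1a (0.981), the aminopeptidase gene npepps (0.981) and the Fgf receptor gene fgfr3 (0.979). An r above 0.95 was reached by 42 genes for sufu and by 18 for gli2a. These values describe 6 libraries that share 2 gates.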

How the data were processed

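RNA of sorted scale osteoblasts was sequenced in 3 libraries per gate. The deposited values are raw read counts for each Ensembl gene. The submitters' processing notes name Trim Galore 0.4.1, the aligner TopHat2 2.1.1, the counter featureCounts 1.6.1 and the build danRer10. Strand setting, annotation release and the handling of multi-mapped reads: not given in the sources used here. Thus reads of overlapping genes cannot be told apart. The deposited gene length, another column of the authors' tables, served for TPM.

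Symbols were looked up by Ensembl identifier (26790 of 34289 genes) and were matched to current zebrafish names through RefSeq annotation of GRCz12tu, by unique symbol and chromosome (16421 genes) or by base name, chromosome and a shared neighbour within 10 genes (3808, among them shha and gli2a). Coordinates are those of the tables.

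Counts were filtered with filterByExpr, scaled by TMM and tested with edgeR 4.0.16 in R 4.3.3 (robust quasi-likelihood test, Benjamini-Hochberg adjustment over all genes tested, threshold 0.05). The SE was taken as the size of the log2 fold change over the root of F. Alternatives used DESeq2 1.42.0 and limma 3.58.1, other scalings and filters, a replicate block and each library left out. Fits were tested on simulated data. Exact permutation tests used scipy 1.17.1. Floors of 3 counts cover counting error only. No 2 libraries were duplicates (smallest chi-square per degree of freedom 85.01).

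The 9 genes and all lists were chosen with earlier results of these data known. Named beside the 9 were, in each pathway list, genes called, the 3 with the smallest p and the most abundant, plus sp7, gmnn and the 3 most correlated genes for sufu and gli2a. One gene of the wider lists is not reported here by name.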

Additional observations from a re-analysis of the deposited data

How the results depend on the processing

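The count of Hedgehog members called was 0 in all 14 alternative fits, among them those without each library in turn (0 to 0). One member, gli2a, had an unadjusted p under 0.05 with the replicate block and without positive-gate replicate 1. For those fits the share over all genes was not computed, and in the main edgeR fit it was 9.40%. The count of wider pathway genes called was 0, and 0 to 0 with 1 library left out. It was 1 of 95 with library size only, where 185 of all 12855 genes tested were called. With DESeq2 it was 5 of 95, beside 628 of 12855, and with no filter 3 of 116, beside 557 of 21637. With library size only, the median of all genes moved by -0.46. This turned the log2 fold change of gli3 to -0.31 and of sufu to -0.15. With 1 library left out, that of gli3 ran from -0.32 (negative-gate replicate 3 left out) to 0.53 and was -0.31 with positive-gate replicate 2 left out. That of hhip ran from -2.37 to 0.64 (negative-gate replicate 1 left out) and was 0.93 with limma-voom. The cause was not tested. The signs of ihha, smo, gli1 and gli2a held in 14 of 14 alternatives and that of ptch1 in 13 of 13, since the stricter filter removed it, and none of these passed the test in any of them.

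Same-numbered libraries deviated from their group means with correlations of 0.18, 0.05 and 0.04, and the other pairs with -0.12 to 0.05. These small values cannot settle whether the numbers mark pairs. The main fit took no pairs, and the replicate block was an alternative. With the replicate block 0 members and 0 wider pathway genes were called, and the count over all genes moved from 78 to 134. The shha mean of 1.61 CPM in the positive gate was 0 without replicate 1 and 2.41 without replicate 2 or 3, an alternative chosen after seeing the data. With 3 libraries per gate the biological coefficient of variation was 1.123, which limits the precision of every fold change given.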
